A study of Mus musculus with 12 samples.

Results

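This account follows 10 genes that are read as markers of epithelial or mesenchymal identity in CT26 cells, a colon carcinoma line from a BALB/c mouse: EPCAM, CDH1, KRT8, KRT18 and KRT19 on the epithelial side, VIM and CDH2 on the mesenchymal side, and the transcription factors ZEB1, SNAI1 and TWIST1. They were taken by their upper-case symbols from a table of 23636 symbols, and all 10 were found. The table holds TPM, transcript levels that are scaled to gene length and to a total of 1000000 in each library, so that levels of different genes can be set side by side. The 12 libraries fell into 4 groups of 3 biological replicates: no treatment, CX3CL1 at 2 µg/ml, IFN-γ at 100 ng/ml, and CX3CL1 with IFN-γ at those doses, each for 8 hours. CX3CL1 is the chemokine ligand of the receptor CX3CR1, and IFN-γ is a cytokine of activated T cells and natural killer cells. All groups are the same line, for which no engineered allele is named, and 1 line in culture stands for no other tumor.

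Epithelial cells are held in sheets by E-cadherin (CDH1) and the adhesion molecule EpCAM, and their cytoskeleton is built from keratin pairs, of which keratins 8 and 18 form the pair of simple epithelia such as the colon, joined there by keratin 19. Mesenchymal cells carry vimentin (VIM) as their intermediate filament and often N-cadherin (CDH2). In the epithelial-mesenchymal transition (EMT), factors of the ZEB, Snail and Twist families repress epithelial genes, and Snail and ZEB proteins bind the E-box core CACCTG in DNA.

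By these genes the RNA of CT26 carried mesenchymal transcripts and few epithelial ones in all 4 groups. Vimentin was among the most abundant transcripts, CDH2, ZEB1, SNAI1 and TWIST1 were all above 10 TPM in every library, and of the epithelial members KRT18 alone reached 1 TPM. Of the 10 members, 6 averaged 0.2 TPM or more across all 12 libraries and were tested (KRT18, VIM, CDH2, ZEB1, SNAI1 and TWIST1), among 11878 genes tested in all. The test was limma on log2(TPM + 1) with Benjamini-Hochberg adjustment over all genes tested, and a gene is called where its adjusted p is under 0.05. A log2 change on this scale understates the change of genes near 1 TPM.

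IFN-γ lowered KRT18, the only member called against no treatment, where 7.85% of all genes tested were called and 1.94% were called lower. With CX3CL1+IFN-γ against no treatment, KRT18 and VIM were called, both lower, where 11.9% of all genes were called and 3.72% called lower. The background of lower calls depended on the scaling. With IFN-γ 702 genes were called higher and 230 lower, against 647 and 347 after median-ratio scaling and 569 and 538 after quantile normalization. With CX3CL1+IFN-γ against no treatment the counts were 975 and 442, 942 and 580, and 803 and 887, and with CX3CL1+IFN-γ against CX3CL1 they were 447 and 111, 374 and 176, and 352 and 224, in the same order. The calls of KRT18 and VIM given here were kept under both scalings. The comparison of CX3CL1+IFN-γ with no treatment was added after the values had been seen. No member was called for CX3CL1 against no treatment, where 1.95% of all genes were called, for CX3CL1+IFN-γ against IFN-γ, where the share was 0.362%, or for CX3CL1+IFN-γ against CX3CL1, where it was 4.7%. In these 3 comparisons KRT18 had an unadjusted p of 0.00552, 0.0738 and 0.0318, and VIM 0.194, 0.155 and 0.0208. The comparisons with no treatment share the untreated libraries and are not independent of each other.

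**Figure D1:**
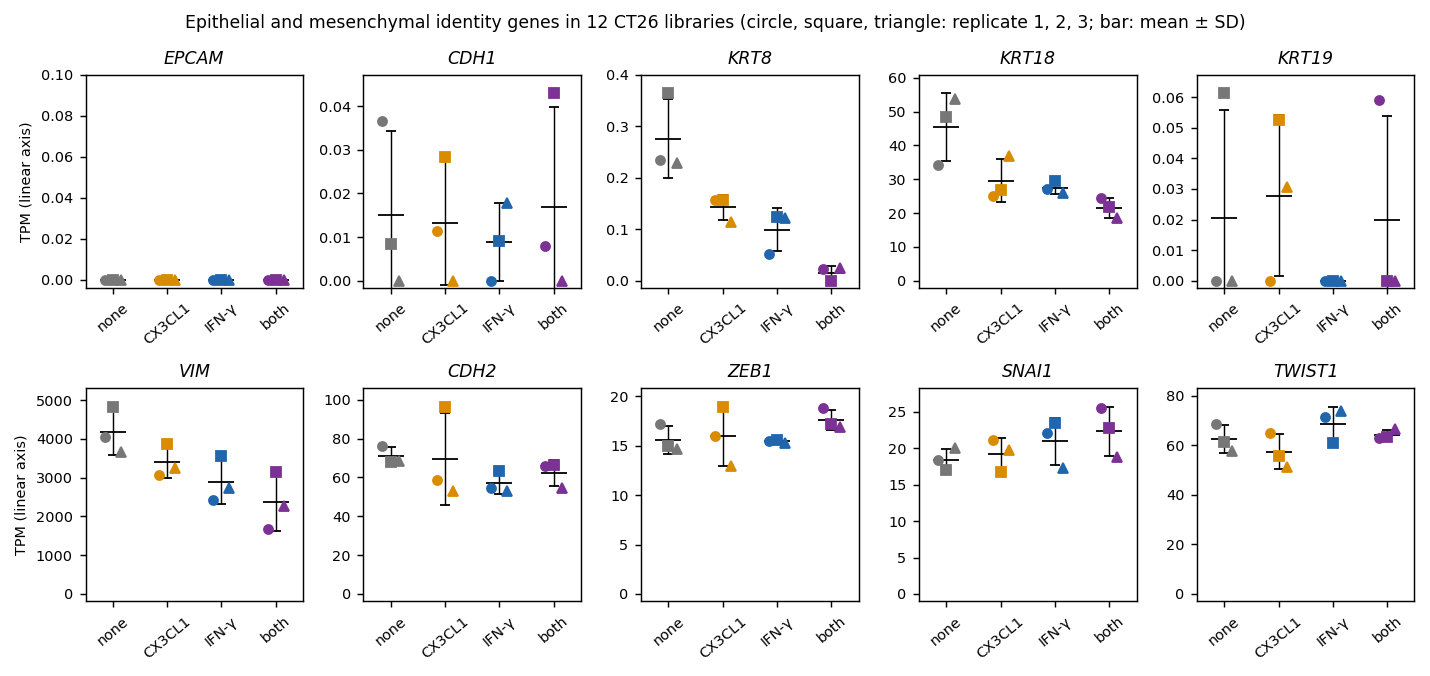
Level of each of the 10 genes (TPM, linear axis starting at 0) in the 12 libraries, by treatment (none, CX3CL1, IFN-γ, both). Circles, squares and triangles are replicates 1, 2 and 3, and the bars are the mean ± SD of 3 libraries, cut off where they would run below the panel. EPCAM was listed at 0 throughout, VIM ran from 1684 to 4831 TPM, and KRT18 and VIM had their highest mean without treatment and their lowest with both agents.

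EPCAM was listed at 0 in all 12 libraries. A listed 0 need not mean an absent transcript, since RPL26, a ribosomal protein gene that every cell uses, was also listed at 0 in all 12. CDH1 was listed at 0 in 4 libraries, and its highest level was 0.0430 TPM, in CX3CL1+IFN-γ replicate 2. KRT19 was above 0 in 4 libraries, with a highest level of 0.0613 TPM in untreated replicate 2, and at 0 in all 3 IFN-γ libraries. TPM carry no read depth, so how many reads stand behind such levels is unknown, and these 3 genes were under the minimum level for the test. With no minimum level, CDH1 and KRT19 were called in no comparison (limma adjusted p of 0.691 to 1).

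The promoters of EPCAM, KRT18 and SNAI1 hold the E-box core, and the bases are shown because these are the letters that the Snail and ZEB factors of the set are known to bind. Each line gives 26 bases 5′ to 3′ on the gene's strand (build GRCm38.p6, RefSeq), with the core CACCTG, or CAGGTG, which is its reverse complement, in capitals.
Epcam, chr17:87635782-87635807, + strand: cagtagggccCACCTGctggaggacc
Epcam, chr17:87635950-87635975, + strand: ccataaaaccCAGGTGtggaggagaa
Krt18, chr15:102027992-102028017, + strand: gggctaacacCACCTGctatcctttg
Snai1, chr2:167538059-167538084, + strand: agcccaggcgCACCTGctccggtctc
RefSeq windows of 250 bases before to 50 bases after the start of the gene were searched for 5 members (EPCAM, KRT18, VIM, SNAI1 and TWIST1), and the core was found on either strand in 3, against 20.2% of 32851 windows of the same length. The other 5 members, CDH1 among them, were not searched. The counted bases from the first letter of the core to the RefSeq start of the gene were 187 and 19 in EPCAM, 214 in KRT18 and 126 in SNAI1. A match is a stretch of letters and not a measured site, and a window without one says only that the letters are not there.

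KRT18 and EPCAM make the contrast within the epithelial members, the first read at 18.4 to 53.6 TPM and the second listed at 0, with the core in the upstream stretch of each. The 214 bases before KRT18 (chr15:102027966-102028179, + strand, GRCm38.p6) and the 250 bases before EPCAM (chr17:87635729-87635978, + strand) follow, with the core in capitals. The KRT18 stretch ends where the GENCODE gene begins, 36 bases before the RefSeq start from which its distance is counted above.
Krt18: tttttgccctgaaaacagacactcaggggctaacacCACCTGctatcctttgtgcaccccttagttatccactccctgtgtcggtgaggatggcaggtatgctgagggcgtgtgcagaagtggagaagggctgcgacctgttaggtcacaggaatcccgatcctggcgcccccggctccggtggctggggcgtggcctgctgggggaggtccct
Epcam: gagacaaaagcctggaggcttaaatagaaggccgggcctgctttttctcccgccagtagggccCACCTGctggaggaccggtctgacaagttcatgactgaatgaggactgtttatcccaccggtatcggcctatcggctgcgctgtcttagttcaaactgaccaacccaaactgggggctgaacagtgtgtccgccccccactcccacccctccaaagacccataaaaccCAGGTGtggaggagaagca

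KRT8, the partner of keratin 18, was read at low levels in 11 of 12 libraries. Its levels were 0.234, 0.364 and 0.229 TPM without treatment, 0.157, 0.156 and 0.114 with CX3CL1, 0.0513, 0.124 and 0.122 with IFN-γ, and 0.0220, 0 and 0.0245 with CX3CL1+IFN-γ. All untreated libraries were above all IFN-γ and CX3CL1+IFN-γ libraries, and all CX3CL1+IFN-γ libraries were below all the others. Among the genes tested, which do not include KRT8, 13.7% stood apart downward with IFN-γ and 12.6% with CX3CL1+IFN-γ, against no treatment. For CX3CL1+IFN-γ below IFN-γ and below CX3CL1 the shares were 7.74% and 5.48%. KRT8 fell under the 0.2 TPM minimum, with a mean of 0.133 TPM, and was tested only when no minimum was set, on 16889 genes. In that limma fit its log2 change was -0.21 (SE 0.04, adjusted p = 0.0145) with IFN-γ and -0.33 (SE 0.04, adjusted p = 0.000757) with CX3CL1+IFN-γ, both against no treatment, and -0.16 (adjusted p = 0.160) with CX3CL1. CX3CL1+IFN-γ differed by -0.17 (adjusted p = 0.0615) from CX3CL1 and by -0.11 (adjusted p = 0.820) from IFN-γ. Adding 1 compresses both change and spread at such levels: the CX3CL1+IFN-γ mean was 0.0561 times the untreated mean. KRT8 was fitted under this setting only, so its calls were not checked with another pseudocount or on leaving out a library. The reads behind levels this low are unknown.

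KRT18 was read at 34.1, 48.3 and 53.6 TPM without treatment. The levels were 25.1, 26.7 and 37.0 TPM with CX3CL1, 27.2, 29.5 and 25.9 TPM with IFN-γ, and 24.3, 21.9 and 18.4 TPM with CX3CL1+IFN-γ. Every IFN-γ and CX3CL1+IFN-γ library was below every untreated one, as for 13.7% and 12.6% of all genes tested. CX3CL1 replicate 3 lay above untreated replicate 1. Keratin genes of this kind have near-identical copies elsewhere in the genome, and reads shared with a copy leave the level of KRT18 and KRT8 uncertain. The genes KRT8 (chr15:101996698-102004482, - strand) and KRT18 (chr15:102028180-102032027, + strand) are neighbours, 23697 bases apart in the GENCODE vM21 annotation of mm10, and the ratio of their untreated means was 165.

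KRT18 fell with IFN-γ from 45.3 ± 10.1 to 27.5 ± 1.87 TPM (SD, n = 3 libraries), a log2 change of -0.68 (SE 0.18, 95% interval -1.06 to -0.29, limma adjusted p = 0.0346). That call was lost without the minimum level (adjusted p = 0.0743) and on leaving out untreated replicate 2 (0.116) or 3 (0.164), or IFN-γ replicate 1 (0.102), 2 (0.0610) or 3 (0.130), and was kept without untreated replicate 1 (0.00808). With CX3CL1+IFN-γ the mean was 21.5 ± 2.96 TPM, 0.475 times the untreated mean (log2 change -1.02, SE 0.18, 95% interval -1.41 to -0.64, limma adjusted p = 0.00171). This fall was called under all 7 other settings and on leaving out any of the 6 libraries, with adjusted p between 0.000497 and 0.0125.

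With CX3CL1 the mean of KRT18 was 29.6 ± 6.44 TPM, a log2 change of -0.59 (SE 0.18, 95% interval -0.98 to -0.21) that was not called (limma adjusted p = 0.172). Without untreated replicate 1, the untreated library with the least KRT18, that comparison was called (log2 change -0.78, adjusted p = 0.0322). CX3CL1+IFN-γ differed by -0.35 (SE 0.18, adjusted p = 0.975) from IFN-γ and by -0.43 (SE 0.18, adjusted p = 0.221) from CX3CL1, and in both cases the groups did not overlap, all CX3CL1+IFN-γ libraries being lower. Of all genes tested, 7.74% and 5.48% stood apart downward in these comparisons. In order of mean level the groups ran no treatment, CX3CL1, IFN-γ, CX3CL1+IFN-γ, and neither the first step nor the last was called, while CX3CL1 and IFN-γ were not tested against each other and their libraries overlapped.

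VIM, the mesenchymal filament gene (chr2:13573927-13582826, + strand, GENCODE vM21 on mm10), ranked between 18 and 73 of all symbols across the libraries. It was read at 4034, 4831 and 3658 TPM without treatment and at 3077, 3877 and 3245 TPM with CX3CL1. The levels were 2423, 3549 and 2724 TPM with IFN-γ and 1684, 3135 and 2260 TPM with CX3CL1+IFN-γ. All IFN-γ and CX3CL1+IFN-γ libraries were below all untreated ones, as were those of 13.7% and 12.6% of all genes tested. The CX3CL1 libraries overlapped with the untreated, and replicate 2 was the highest of its group in all 4 groups.

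VIM fell with CX3CL1+IFN-γ from 4174 ± 599.1 to 2360 ± 730.5 TPM, 0.565 times the untreated mean (log2 change -0.86, SE 0.21, 95% interval -1.32 to -0.40, limma adjusted p = 0.0186). The call was lost without the minimum level (adjusted p = 0.0612) and on leaving out untreated replicate 2 (0.0848) or CX3CL1+IFN-γ replicate 1 (0.0746) or 3 (0.0648). With IFN-γ alone the mean was 2899 ± 583.5 TPM, and the log2 change of -0.54 (SE 0.21, 95% interval -0.999 to -0.07) was not called (limma adjusted p = 0.164). Taking the replicate number as a block, in a comparison where same-numbered libraries deviated together, gave the same change an SE of 0.12 and an adjusted p of 0.0140. VIM was lower with IFN-γ in 3 of 3 same-numbered pairs, at 0.601 to 0.745 times the untreated level.

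The difference of VIM between CX3CL1+IFN-γ and CX3CL1 was -0.57 (SE 0.21, 95% interval -1.03 to -0.10, limma adjusted p = 0.176), and with the replicate block its adjusted p was 0.0138. Without CX3CL1+IFN-γ replicate 2 it was -0.79 and was called (adjusted p = 0.0447). CX3CL1 moved VIM by -0.29 (SE 0.21, adjusted p = 0.998) against no treatment and by -0.32 (SE 0.21, adjusted p = 0.975) on top of IFN-γ. The intervals of these differences ran from -0.76 to 0.17 and from -0.79 to 0.14. On top of IFN-γ, where same-numbered libraries deviated together, VIM was lower in 3 of 3 such pairs (0.695 to 0.883 times), and the replicate block gave an SE of 0.12, an unadjusted p of 0.0232 and a limma adjusted p of 0.480. VIM stayed at 92.1 times KRT18 without treatment and 115, 105 and 110 times with CX3CL1, IFN-γ and CX3CL1+IFN-γ, by the ratio of the group means.

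**Figure D2:**
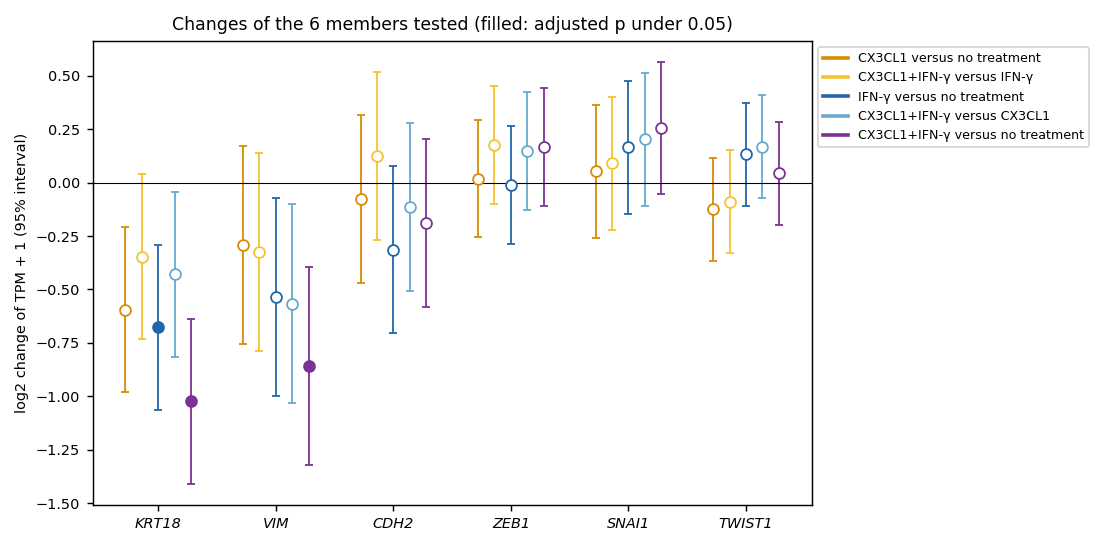
Log2 change of TPM + 1 of the 6 tested genes in 5 comparisons (colours), with 95% intervals from the limma fit on 12 libraries. Filled circles passed an adjusted p of 0.05: KRT18 at -0.68 with IFN-γ and -1.02 with CX3CL1+IFN-γ, and VIM at -0.86 with CX3CL1+IFN-γ, each against no treatment. The intervals of CDH2, ZEB1, SNAI1 and TWIST1 all include 0.

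CDH2, which encodes N-cadherin, was read at 76.2, 68.1 and 68.2 TPM without treatment, at 58.8, 96.4 and 53.1 with CX3CL1, at 54.6, 63.3 and 52.9 with IFN-γ and at 65.8, 66.3 and 54.3 with CX3CL1+IFN-γ. It was called in no comparison. All IFN-γ libraries were below all untreated ones (log2 change -0.31, SE 0.18, limma adjusted p = 0.341), as 13.7% of all genes were, and so were all CX3CL1+IFN-γ libraries (-0.19, SE 0.18, adjusted p = 0.585), as 12.6% of all genes were. CX3CL1 replicate 2 was the highest of all 12 libraries for CDH2, and without it the change with CX3CL1 went from -0.08 to -0.34 (adjusted p = 0.227). Among 23 symbols of the CDH series in the table, CDH2 had the highest mean (64.8 TPM over the 12 libraries), 10 were listed at 0 throughout, and 5 had a mean of at least 1 TPM (CDH2, CDH26, CDH24, CDH13 and CDH17).

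ZEB1, SNAI1 and TWIST1, the EMT factors among the members, were read in every library and called in no comparison, under none of the other settings and on leaving out no library. ZEB1, a zinc-finger repressor of CDH1, ran from 14.6 to 17.2 TPM without treatment, 12.9 to 18.9 with CX3CL1, 15.3 to 15.6 with IFN-γ and 16.9 to 18.8 with CX3CL1+IFN-γ. Its CX3CL1+IFN-γ libraries were all above its IFN-γ libraries (log2 change 0.18, SE 0.13, limma adjusted p = 0.975), as were those of 8.54% of all genes.

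SNAI1, the gene of the repressor Snail (chr2:167538195-167542814, + strand, GENCODE vM21 on mm10), was read at 17.05 to 20.01 TPM without treatment, 16.8 to 21.1 with CX3CL1, 17.4 to 23.4 with IFN-γ and 18.8 to 25.5 with CX3CL1+IFN-γ. Its largest log2 change was 0.26 (SE 0.14, 95% interval -0.05 to 0.57, limma adjusted p = 0.306), for CX3CL1+IFN-γ against no treatment, and the groups overlapped. TWIST1, a basic helix-loop-helix factor (chr12:33957671-33959829, + strand), was the most abundant of the 3 and ran from 51.4 TPM in CX3CL1 replicate 3 to 74.1 TPM in IFN-γ replicate 3. Over the 5 comparisons its intervals lay between -0.36 and 0.41, those of ZEB1 between -0.29 and 0.45, and those of SNAI1 between -0.26 and 0.57, on the log2 scale.

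Whether the effect of IFN-γ on a member differed with CX3CL1 present was tested as the interaction of the agents. No member was called, and limma called 0 of 11878 genes (0.0%), with 273 (2.3%) at an unadjusted p under 0.05 and 52 called with the replicate block. The interaction was 0.25 (SE 0.25, 95% interval -0.30 to 0.79) for KRT18 and -0.03 (SE 0.30, 95% interval -0.69 to 0.63) for VIM, on the log2 scale. These intervals are wide beside the changes themselves.

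The genes whose levels tracked a member most closely were found over the 12 libraries, which share treatments, replicate numbers and the fixed sum of TPM, and are given as a description. VIM ran most like VDAC1 (Pearson r = 0.972), HADHB (0.959) and GLOD4 (0.957), and KRT18 most like COL7A1 (0.931), RPL7A (0.930) and MRPS6 (0.921). CDH2 ran most like SENP6 (0.988), AP1AR (0.977) and HELLS (0.974), and ZEB1 most like CCNYL1 (0.966), CAMSAP2 (0.953) and ADAM9 (0.947). For SNAI1 they were TCTE2 (0.906), ZFP592 (0.856) and GGA3 (0.854), and for TWIST1 IFT140 (0.924), BRIP1OS (0.916) and TATDN3 (0.893). No member was among the 3 nearest genes of another. CDH2 and its 3 nearest genes all had their highest level in CX3CL1 replicate 2, as did ZEB1, CCNYL1 and CAMSAP2. How far these r values rest on that library was not tested.

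Other genes of epithelial adhesion were read at widely different levels. Of 35 adhesion and junction genes, which include EPCAM and CDH1, 25 were under 1 TPM in every library and 9 were listed at 0 in all, where 28.5% of all symbols in the table were listed at 0 in all. A mean of at least 10 TPM was reached by 7, and the most abundant were the catenin genes CTNNB1 (177.0 to 238.6 TPM), CTNNA1 (172.4 to 275.9) and CTNND1 (103.1 to 129.3) and the integrin gene ITGA6 (117.3 to 216.4). Of the 10 tested, JUP, the gene of plakoglobin, was the 1 called with IFN-γ (7.85% of all genes were) and with CX3CL1+IFN-γ against no treatment (11.9% were), and the other 9 missed the threshold. JUP was at 4.25 ± 0.623 TPM without treatment, fell to 2.57 ± 0.557 with IFN-γ (log2 change -0.56, limma adjusted p = 0.0299, lost on leaving out untreated replicate 1 or 3, or IFN-γ replicate 2 or 3, at up to 0.141) and to 1.89 ± 0.342 with CX3CL1+IFN-γ (-0.86, adjusted p = 0.00121, kept on leaving out any library).

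**Figure D3:**
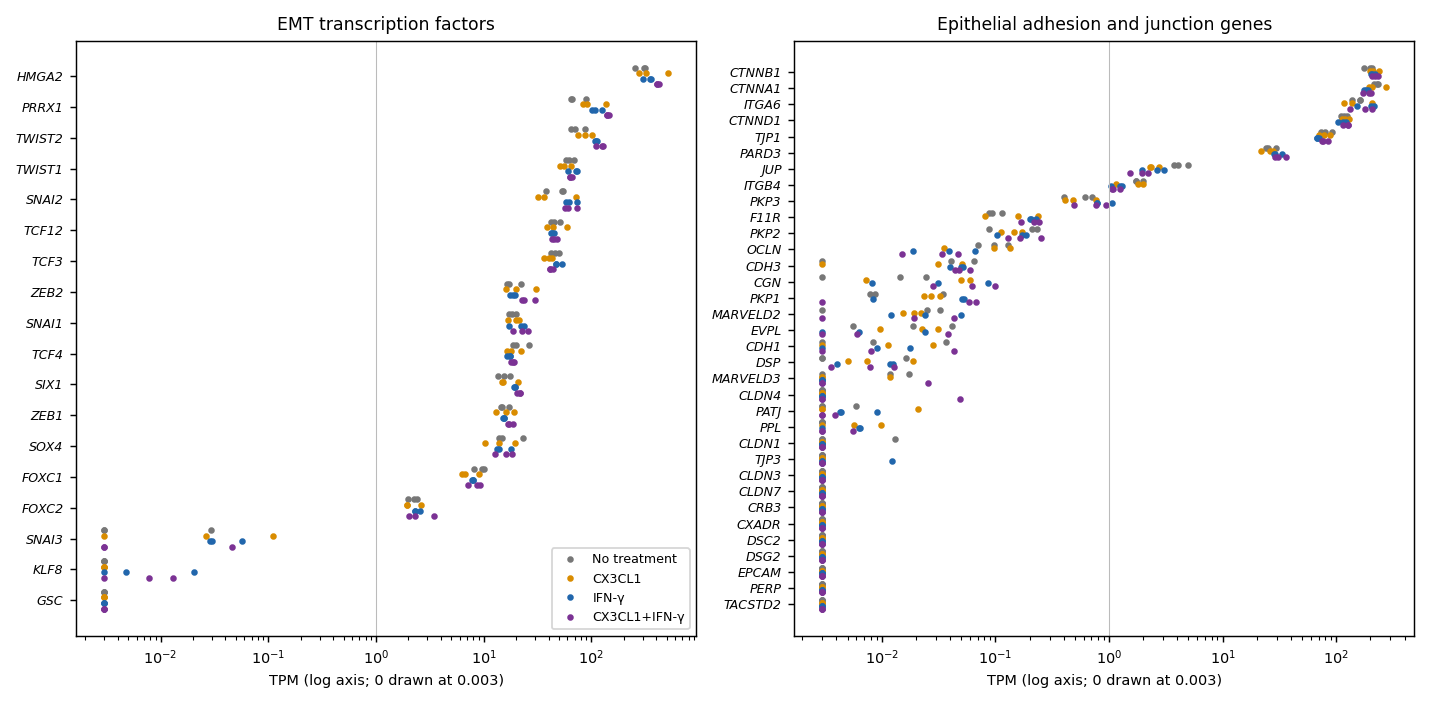
TPM of 18 EMT transcription factors (left) and 34 of the 35 epithelial adhesion and junction genes (right) in each of the 12 libraries (points, coloured by treatment), on a log axis with values of 0 drawn near the left edge and a line at 1 TPM. Of the factors, 13 had a mean of at least 10 TPM, while 25 of the 35 adhesion and junction genes stayed under 1 TPM in every library.

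Among 19 keratins of the list, 6 were tested, and KRT80 (34.6 to 57.3 TPM), KRT18, KRT20 (6.44 to 16.8) and KRT10 (1.38 to 2.41) were the most abundant. KRT16, a keratin of stressed and stratified epithelium, was called higher with IFN-γ. It rose from 0.0794, 0 and 0.0301 TPM without treatment to 0.274, 0.910 and 1.19 TPM (log2 change 0.75, limma adjusted p = 0.0345). Every untreated level was under the 0.2 TPM minimum, so KRT16 entered the test only through treated libraries. Its calls are not free of that selection. The call for KRT16 was kept on leaving out 1 of the 6 libraries, IFN-γ replicate 1, and lost on leaving out any of the other 5, with adjusted p up to 0.152. With CX3CL1+IFN-γ against no treatment KRT16 was 0.84 higher (adjusted p = 0.0131, lost without CX3CL1+IFN-γ replicate 3 at 0.0678). Over the 6 keratins tested the median log2 change with IFN-γ was -0.04, against 0.03 over all genes tested, of which 7.85% were called.

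Of 22 epithelial transcription and splicing regulators, 17 were under 1 TPM in every library. The 5 tested were KLF4 (67.01 to 127.8 TPM), KLF5 (58.3 to 108.4), FOXA1 (12.3 to 18.7), SOX9 (7.90 to 15.4) and GRHL1. KLF4, a factor of differentiated colon epithelium, rose with IFN-γ from 76.6 ± 8.38 to 109.7 ± 7.10 TPM (log2 change 0.52, limma adjusted p = 0.0291, lost on leaving out untreated replicate 1 or 3, or IFN-γ replicate 2 or 3, at up to 0.144) and was at 123.6 ± 4.73 with CX3CL1+IFN-γ (0.69, adjusted p = 0.00327). Of 17 intestinal epithelial markers, 15 were under 1 TPM in every library. The other two were CEACAM1, an adhesion molecule of colon epithelium (0.413 to 1.77 TPM, called in no comparison), and CDH17, the gene of LI-cadherin. CDH17 was read at 2.41, 1.65 and 1.74 TPM without treatment, 3.20, 3.40 and 3.65 with CX3CL1, 10.4, 12.9 and 13.2 with IFN-γ, and 8.82, 13.2 and 13.2 with CX3CL1+IFN-γ. Its libraries with IFN-γ were all above those without, with log2 changes of 2.17 against no treatment (SE 0.16, limma adjusted p = 4.9e-06) and 1.51 against CX3CL1 (SE 0.16, adjusted p = 0.000287), called under every other setting and on leaving out any library.

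The cadherins of the table went different ways with IFN-γ, with CDH17 called higher, CDH2 not called and CDH1 too low to test. CDH26 was called lower, from 36.2 ± 3.02 to 16.7 ± 2.59 TPM (log2 change -1.08, SE 0.18, limma adjusted p = 0.00219), and so was CDH13, the gene of T-cadherin, from 10.7 ± 1.28 to 5.34 ± 1.65 TPM (-0.92, SE 0.22, adjusted p = 0.0228). The call of CDH26 was kept on leaving out any library, and that of CDH13 was lost without the minimum level (0.0615) or without untreated replicate 2 (0.0823) or 3 (0.0905) or IFN-γ replicate 1 (0.0977) or 3 (0.0588). CDH26 and CDH13 are outside the lists and were named after their values had been seen.

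Of 18 EMT transcription factors, 15 were tested and 13 had a mean of at least 10 TPM. HMGA2, a chromatin protein of embryonic cells, was the most abundant (251.6 to 515.6 TPM), followed by PRRX1, TWIST2, TWIST1 and SNAI2. With IFN-γ 2 rose and none fell: TWIST2 went from 73.9 ± 11.2 to 110.8 ± 2.30 TPM (log2 change 0.59, SE 0.13, limma adjusted p = 0.0120, lost without untreated replicate 3 at 0.0723), and PRRX1 from 73.2 ± 13.1 to 112.0 ± 11.8 TPM (0.62, SE 0.17, adjusted p = 0.0438, kept without untreated replicate 1 and lost without any of the other 5, at up to 0.177). With CX3CL1+IFN-γ the same 2 genes were called, at 0.72 (adjusted p = 0.00188) and 0.96 (adjusted p = 0.00201), kept on leaving out any library. Over all genes tested, 7.85% were called with IFN-γ and 11.9% with CX3CL1+IFN-γ, both against no treatment. The median log2 change of the 15 factors with IFN-γ was 0.09, against 0.03 over all genes tested.

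In the list of 19 mesenchymal filament, cadherin and surface genes, 12 were tested. The shares called over all genes were 7.85% with IFN-γ and 11.9% with CX3CL1+IFN-γ, both against no treatment. With IFN-γ none was called, and with CX3CL1+IFN-γ against no treatment VIM was lower while AXL, a receptor kinase, and ITGA5, an integrin chain, were higher, both by 0.40 on the log2 scale (limma adjusted p = 0.0255 and 0.0247). Both of these calls were lost on leaving out replicate 3 of either group, AXL also without untreated replicate 1 or CX3CL1+IFN-γ replicate 2 (adjusted p up to 0.121), and ITGA5 also without untreated replicate 2 or CX3CL1+IFN-γ replicate 1 (up to 0.102). The scaling mattered as well, since AXL was not called after median-ratio scaling and ITGA5 was not called after quantile normalization. ITGB1 (334.4 to 615.7 TPM), AXL (307.7 to 465.2) and CD44 (273.7 to 447.1) followed VIM in level.

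The contractile and matrix list held 26 genes, 24 of them in the table and 14 tested. With IFN-γ 2 were called higher and 3 lower, where 7.85% of all genes were called and 1.94% called lower. S100A4, a calcium-binding protein used as a mesenchymal marker, fell from 3587, 6966 and 6404 TPM to 1157, 2893 and 1747 TPM (log2 change -1.59, SE 0.37, limma adjusted p = 0.0196). SPARC, a matrix glycoprotein, went from 275.9 ± 20.5 to 189.7 ± 15.2 TPM (-0.54, adjusted p = 0.0135), and CTGF, a matricellular growth factor, from 35.7 ± 5.48 to 17.9 ± 4.25 TPM (-0.97, adjusted p = 0.0161). FSTL1 (0.86, adjusted p = 0.0263) and TAGLN2 (0.41, adjusted p = 0.0232) were the 2 that rose. Each of these 5 calls was lost on leaving out 4 or 5 of the 6 libraries, IFN-γ replicate 3 for all of them and untreated replicate 3 for all but TAGLN2, with adjusted p up to 0.123. TAGLN2 also lost its call after median-ratio scaling, and FSTL1 and S100A4 lost theirs with no minimum level.

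Of 20 genes of the TGF-beta pathway, a known inducer of EMT, 19 were tested. The shares called over all genes were 1.95% with CX3CL1 and 7.85% with IFN-γ, both against no treatment. CX3CL1 raised TGFBR3, the gene of the co-receptor betaglycan, from 33.1, 30.2 and 26.0 TPM to 62.2, 72.8 and 52.1 TPM (log2 change 1.04, SE 0.16, limma adjusted p = 0.00262, kept on leaving out any library). CX3CL1 lowered TGFB3, a TGF-beta ligand, from 15.1 ± 3.19 to 8.52 ± 0.796 TPM (-0.74, adjusted p = 0.0106, lost on leaving out replicate 3 of either group, with adjusted p up to 0.0866). With IFN-γ, SMURF1, a ubiquitin ligase of the pathway, rose from 61.2 ± 3.28 to 103.8 ± 8.99 TPM (0.75, SE 0.10, adjusted p = 0.000401, kept on leaving out any library), and ID3, a target gene of the related BMP signal, rose by 1.12 (adjusted p = 0.0479, lost under 3 other settings and on leaving out any library but untreated replicate 2, with adjusted p up to 0.204).

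With CX3CL1+IFN-γ against no treatment, which shares the untreated libraries with the comparisons above, 24 of the 83 list genes tested were called. With IFN-γ alone 14 were called. Over all 11878 genes tested the counts were 1417 (11.9%) and 932 (7.85%). In the matrix list DCN, the gene of decorin, rose from 0.279, 0.171 and 0.191 TPM to 2.00, 1.83 and 1.63 TPM (log2 change 1.22, SE 0.15, limma adjusted p = 9.5e-05), and FSTL1 (1.20) and TAGLN2 (0.60) rose with it. S100A4 (-1.78), CTGF (-1.22), SPARC (-0.77) and TPM2 (-0.55) fell, and of these 7 calls TPM2 was the one lost on leaving out a library (untreated replicate 2 or 3, or CX3CL1+IFN-γ replicate 2 or 3, adjusted p up to 0.168). Of the TGF-beta list, TGFBR3 (1.39), ID3 (1.18), TGFB1 (0.92), SMURF1 (0.85), LTBP2 (0.50) and SKIL (0.44) rose and TGFB3 (-0.71) fell. ID3 was lost without replicate 1 or 3 of the untreated or replicate 2 or 3 of the CX3CL1+IFN-γ libraries (adjusted p up to 0.129), and SKIL without any library but untreated replicate 1 (up to 0.147). With no minimum level the calls of ID3, SKIL and TPM2 were lost too. So was that of SKIL after quantile normalization, and that of TPM2 in a fit on only the libraries compared.

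With the agents compared on top of each other, TGFBR3 was higher in CX3CL1+IFN-γ than in IFN-γ (log2 change 0.95, limma adjusted p = 0.0210, lost without replicate 2 or 3 of IFN-γ or replicate 1 or 3 of CX3CL1+IFN-γ, at up to 0.123). Against CX3CL1, the CX3CL1+IFN-γ libraries were higher in CDH17, SMURF1 (0.51, limma adjusted p = 0.0117), DCN (0.95, adjusted p = 0.00249), BGN (1.12, adjusted p = 0.0130), ID3 (1.21, adjusted p = 0.0484) and KRT16 (0.75, adjusted p = 0.0490), and lower in S100A4 (-1.48, adjusted p = 0.0415). CDH17, SMURF1 and DCN kept their calls on leaving out any library, and BGN lost its call without CX3CL1 replicate 3 (adjusted p = 0.0533). That library and CX3CL1 replicate 2 and CX3CL1+IFN-γ replicate 3 each ended the calls of ID3, KRT16 and S100A4 when left out. CX3CL1+IFN-γ replicate 2 also ended those of ID3 and KRT16, CX3CL1 replicate 1 that of KRT16 and CX3CL1+IFN-γ replicate 1 that of S100A4, with adjusted p up to 0.191 over all alternatives. A fit on only the libraries compared ended the calls of SMURF1 (limma adjusted p = 0.0746), ID3, KRT16 and, on top of IFN-γ, TGFBR3. With no minimum level those of ID3, KRT16, S100A4 and TGFBR3 were lost. Median-ratio scaling and quantile normalization each ended those of ID3 and KRT16.

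**Figure D4:**
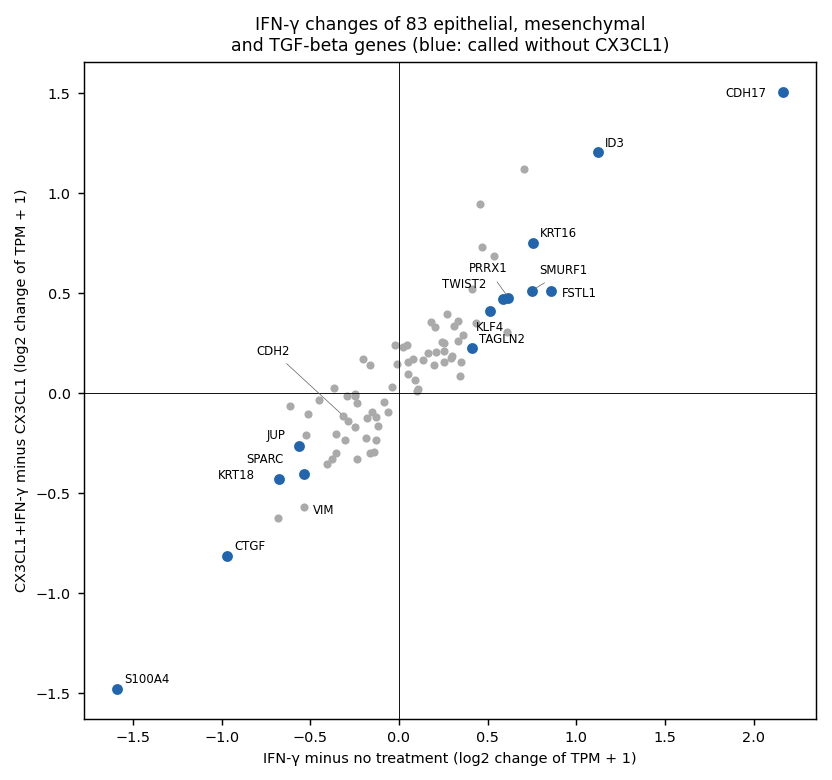
Log2 change of TPM + 1 with IFN-γ, without CX3CL1 (horizontal axis) and with CX3CL1 (vertical axis), for the 83 tested genes of the 8 epithelial, mesenchymal and TGF-beta lists, with blue for genes called without CX3CL1 and grey for the others. The axes share no library, and the lists were chosen with earlier results of these data known. The change had the same sign on both axes in 77 genes, from S100A4 at -1.59 and -1.48 to CDH17 at 2.17 and 1.51, and KRT18 and VIM lie among the genes that were lower on both.

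The pair of IFN-γ effects, without and with CX3CL1, shares no library. Over the 83 tested genes of the 8 lists, members included, the effects had the same sign in 77 (92.8%), against 9365 of 11878 (78.8%) of all genes tested. Of the 6 tested members, KRT18, VIM and CDH2 were negative in both, SNAI1 and TWIST1 positive in both, and ZEB1 was near 0 without CX3CL1 (-0.01) and at 0.15 with it. For the CX3CL1 effects, without and with IFN-γ, 64 of the 83 (77.1%) had the same sign, against 65.9% of all genes tested. These shares are a description, since the lists were chosen with earlier results of these data known and genes are not independent replicates. The difference from all genes was not tested.

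Markers of other cells, apart from CD14, were low in these cultures. Of 14 leukocyte markers, only CD14 (23.7 to 47.5 TPM) and LYZ2 passed the minimum level, neither was called, with PTPRC, the pan-leukocyte gene CD45, at 0.0441 TPM or less, and the 13 others than CD14 summed to between 0.165 and 2.16 TPM, highest in a CX3CL1 library. All 9 endothelial markers were under 1 TPM in every library, with sums between 0.0404 and 0.489 TPM. In a bulk culture fewer cells of a kind and less RNA per cell cannot be told apart, so a lower level of KRT18 or VIM is a lower share of the RNA pool and no more. Between 10613 and 10824 symbols reached 1 TPM in a library, and replicates correlated at 0.994 to 0.998 on the log2 scale.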

How the data were processed

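RNA of CT26 cells was sequenced from strand-specific mRNA libraries. The authors aligned the reads to mm10 with STAR 2.7.3a in the VIPER pipeline and tested gene counts with DESeq2 1.22.1, as the submitters' processing notes and the methods state. The deposited values are TPM, 1 column for each of 12 libraries, which sum to 1000000 in each. How the TPM were made from the counts, the annotation and any filter are not given in the sources used here. Gene counts were not used here, and no count test was run. TPM carry no depth, and the precision of a value is the spread of 3 libraries. Of the 23636 symbols, 6747 were listed at 0 in all libraries, 26 had become dates and 2 names were repeated.

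Tests were run in R 4.3.3 with limma 3.58.1 (lmFit, eBayes with a trend). TPM were log2 transformed after adding 1, and the 11878 genes averaging 0.2 TPM or more were tested. All libraries entered each fit, with no block. Benjamini-Hochberg adjustment was made for each comparison on its own, and the threshold was 0.05. The script was tested on simulated data. Because no p of an exact permutation test of 3 against 3 libraries can go below 0.1, the fit across all genes was used. Alternatives were a pseudocount of 0.1, no minimum level, a minimum of 1 TPM, quantile normalization, scaling by the median ratio, a fit on only the libraries compared, a replicate block, and leaving out each library. The comparison of CX3CL1+IFN-γ with no treatment was added later.

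Replicate numbers come from the titles, which call the libraries biological replicates and do not say what a number shares. Same-numbered libraries deviated together, with every correlation of their deviations from the group means over 0.1, between no treatment and IFN-γ (0.22 to 0.46), CX3CL1 and CX3CL1+IFN-γ (0.351 to 0.428) and IFN-γ and CX3CL1+IFN-γ (0.63 to 0.649). That did not hold for every number between no treatment and CX3CL1 (0.387, 0.00472 and 0.301 for numbers 1, 2 and 3). Nor did it between no treatment and CX3CL1+IFN-γ (0.312, 0.447 and 0.0324).

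The members and the gene lists were chosen with earlier results of these data known. All 10 members are named, as are the called genes and the 4 most abundant of each list where it is described, and the 3 genes most correlated with each member of at least 1 TPM. Doses and the time are those of the methods and of the figure legend for this experiment. For the combined treatment the authors' results text also names TNF-α beside IFN-γ, with CX3CL1 given afterwards. The sample titles and the legend name no TNF-α and no order. Gene positions are from GENCODE vM21 (mm10) and promoters from RefSeq (GRCm38.p6). A few items are not reported here.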

Additional observations from a re-analysis of the deposited data

How the results depend on the processing

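The read depth behind the TPM is unknown, so the low levels of EPCAM, CDH1, KRT8 and KRT19 have no counting error and no floor, and each group rests on 3 libraries of 1 line. Over the tested members and those list genes called above, 923 of 1078 values under other settings kept their direction and side of the threshold, 127 lost a call, 4 values of members gained one and 24 changed sign. With no minimum level the calls of JUP, KLF4, KRT16 and PRRX1 with IFN-γ against no treatment were lost. That of TGFB3 with CX3CL1 was lost in a fit on only the libraries compared. Other scalings moved the median of all genes by less than 0.1 on the log2 scale.

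The replicate block raised the counts of genes called to 455 for CX3CL1 against no treatment (232 without it), 1929 for IFN-γ against no treatment (932), 95 for CX3CL1+IFN-γ against IFN-γ (43), 1369 for CX3CL1+IFN-γ against CX3CL1 (558), 2464 for CX3CL1+IFN-γ against no treatment (1417) and 52 for the interaction (0). Of the members it changed the call of VIM in 2 comparisons, given above, and no other. For CX3CL1+IFN-γ against IFN-γ the count was 28 with no minimum level and 20 with only the libraries compared, for CX3CL1+IFN-γ against CX3CL1 it was 344 with only the libraries compared, and for the interaction it was 1 after quantile normalization. The cause was not tested.

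Leaving out 1 library at a time gave counts of 152 to 268, 530 to 764, 16 to 54, 270 to 668, 924 to 1345 and 0 to 11 in the same order. Changes of members that were small and uncalled changed sign. With CX3CL1 against no treatment the log2 change ran from -0.34 to 0.090 for CDH2, -0.11 to 0.15 for ZEB1 and -0.015 to 0.14 for SNAI1. It ran from -0.052 to 0.060 for ZEB1 with IFN-γ, from -0.033 to 0.20 for SNAI1 between CX3CL1+IFN-γ and IFN-γ, from -0.28 to 0.15 for CDH2 between CX3CL1+IFN-γ and CX3CL1, and from -0.012 to 0.11 for TWIST1 between CX3CL1+IFN-γ and no treatment, where quantile normalization gave -0.041. The interaction ran from -0.26 to 0.19 for VIM, -0.086 to 0.15 for SNAI1 and -0.049 to 0.13 for TWIST1.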
